A study of Mus musculus with 3 samples.

Results

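The 30 genes described here encode enzymes and carriers of mitochondrial fatty acid oxidation and of ketone body formation, and they were taken from a table of 35275 mouse genes by matching their symbols. All 30 symbols were found. Liver was measured in 3 polyA RNA libraries, 1 per group, from male C57BL/6 mice (C57BL/6J in the treatment text) whose age at the start of the diets was 10 weeks. Untreated mice on normal chow gave the control library. The NASH library (nonalcoholic steatohepatitis, a fatty and inflamed liver) came from untreated mice given western chow plus fructose to drink, with 24 weeks named in its label. The library of TH-treated NASH was from mice that had 16 weeks of that diet and then received T3 at 35 ng/g and T4 at 7 ng/g, the 2 thyroid hormones, for 8 weeks in drinking water with 15% fructose. The labels give no age at collection and leave it unstated if RNA of several mice was pooled. With 1 library per group, no difference below has a replicate check, and no test between groups was run. The names "control", "NASH" and "TH-treated NASH" stand for single libraries. Likewise "with thyroid hormone" and "with TH treatment" mean in the TH-treated NASH library, and hormone and library cannot be told apart.

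Long-chain fatty acids are activated to acyl-CoA, pass the inner mitochondrial membrane as carnitine esters, and are then shortened by rounds of dehydrogenation, hydration, a second dehydrogenation and thiolysis, with separate enzymes for long, medium and short chains. The electrons of the first step pass through the electron transfer flavoprotein to ubiquinone, and the acetyl-CoA that is released feeds the citric acid cycle or, in fasted liver, the making of ketone bodies. Thyroid hormone raises hepatic fatty acid oxidation in rodents, with Cpt1a among its known targets, and PPARA is the nuclear receptor best known for inducing the pathway in fasting.

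The libraries held 54576236 (control), 47009255 (NASH) and 38303410 (TH-treated NASH) fragments on genes. Levels are FPKM, fragments per kilobase of gene scaled to library size, as the authors deposited them. Folds are FPKM divided by FPKM, each followed by its exact 95% interval for counting error, with differences between mice not covered. Calls of higher or lower were made at 1.5-fold or more on log2(FPKM + 1), among the 11835 genes at 1 FPKM or more in any library, a filter that 29 of the 30 members passed. The thyroid hormone target Dio1, a deiodinase, stood at 90.3 FPKM in control, 129 in NASH and 429.7 with TH treatment. Thrsp, also set as a check, stood at 191, 390 and 485 FPKM. It was called higher in NASH than in control, and at 1.24-fold (1.22 to 1.27) was not called between TH-treated NASH and NASH. The Y-linked genes Ddx3y, Eif2s3y, Kdm5d and Uty were present in all 3 libraries, and Xist stood at 0.0113 FPKM or less. The TH-treated NASH library stood apart in further respects. Its 6 male-biased liver genes summed to 1412 FPKM against 11150 in NASH and 8449 in control. Its 6 female-biased liver genes summed to 124 FPKM against 1.68 in NASH and 0.889 in control, and its 5 red cell genes to 1757 against 391 and 316. Of the red cell genes 4 were called higher and 1 lower than in either other library. The part of both gene classes in the results below was not tested.

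The 30 members summed to 3477 FPKM in control, 3654 in NASH and 3497 with TH treatment, which was 0.822%, 0.885% and 0.791% of all fragments. Acaa2 and Etfb were the largest single terms of these sums, and most of each sum came from the other members. The median member stood at 88.5, 113 and 80.71 FPKM in the same order. Single levels ran from 0.0735 FPKM for Cpt1b to 615 for Acaa2, the thiolase that ends each round on medium and short chains and the most abundant member in every library. Etfb was the next most abundant in every library. At the lower end stood the carriers Slc16a1 and Slc16a6, the dehydrogenase Acad10 and Cpt1b. Of the 9 step groups described below, the medium-chain synthetases, the medium- and short-chain matrix enzymes and the ketone body enzymes held all of the members called lower with thyroid hormone except Acad10.

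**Figure D1:**
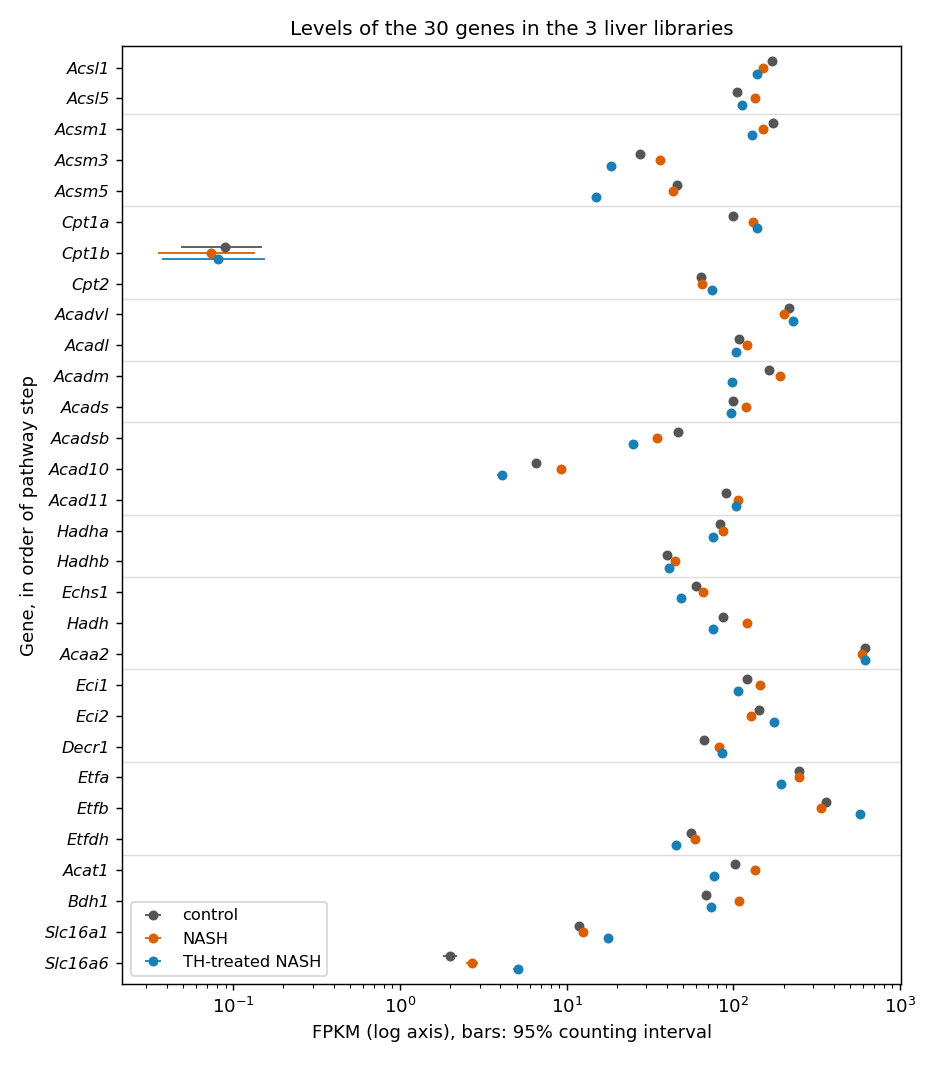
FPKM of the 30 genes (log axis) in control, NASH and TH-treated NASH, ordered by pathway step with grey lines between steps; points are single libraries and bars are 95% counting intervals. Acaa2 lies highest at 591 to 615 FPKM, and Cpt1b lowest at 0.0735 to 0.0886 FPKM.

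Promoter sequences are shown for members on which the comparisons turn: Hadhb, whose upstream region is shared with its partner subunit Hadha, Acsm5 and Acadm, which were lower in TH-treated NASH, Etfb, which was higher, and Cpt1a, the gate of the pathway. Each is the stretch of 250 bases before the gene's RefSeq start (build GRCm38.p6), read 5′ to 3′ on the gene's own strand, at chr5:30155003-30155252 (+), chr7:119526015-119526264 (+), chr3:153944644-153944893 (-), chr7:43443822-43444071 (+) and chr19:3323051-3323300 (+). Capitals mark AGGTCA (the nuclear receptor half-site), GGGCGG (the GC box), the CCAAT box, or the TATA box TATAAA, each on either strand.
Hadhb: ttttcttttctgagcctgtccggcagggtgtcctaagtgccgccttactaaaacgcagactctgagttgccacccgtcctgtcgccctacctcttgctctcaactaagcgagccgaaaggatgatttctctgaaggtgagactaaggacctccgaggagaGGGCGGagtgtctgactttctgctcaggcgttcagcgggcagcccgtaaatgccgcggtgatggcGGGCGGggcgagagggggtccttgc
Acsm5: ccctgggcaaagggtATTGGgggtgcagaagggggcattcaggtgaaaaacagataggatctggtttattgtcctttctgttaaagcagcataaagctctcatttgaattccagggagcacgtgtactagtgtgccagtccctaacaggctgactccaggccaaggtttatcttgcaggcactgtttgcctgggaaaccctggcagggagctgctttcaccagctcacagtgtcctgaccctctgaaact
Acadm: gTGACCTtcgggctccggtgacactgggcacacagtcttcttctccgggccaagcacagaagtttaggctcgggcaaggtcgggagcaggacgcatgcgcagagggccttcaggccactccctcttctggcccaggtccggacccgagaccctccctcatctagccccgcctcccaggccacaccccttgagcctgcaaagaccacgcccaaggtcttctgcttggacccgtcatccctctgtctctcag
Etfb: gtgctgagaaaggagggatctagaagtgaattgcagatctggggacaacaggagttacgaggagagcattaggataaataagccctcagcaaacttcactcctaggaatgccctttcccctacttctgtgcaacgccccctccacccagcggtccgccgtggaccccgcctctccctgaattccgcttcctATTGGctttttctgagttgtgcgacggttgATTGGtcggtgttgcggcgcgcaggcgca
Cpt1a: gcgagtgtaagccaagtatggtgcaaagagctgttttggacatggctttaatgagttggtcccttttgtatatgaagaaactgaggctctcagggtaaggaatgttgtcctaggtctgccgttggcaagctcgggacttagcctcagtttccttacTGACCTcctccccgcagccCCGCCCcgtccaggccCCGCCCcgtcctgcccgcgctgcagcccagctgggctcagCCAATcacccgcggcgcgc

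Of the 30 members, 25 were matched to a RefSeq promoter window, 27 windows in all. The windows are not independent: those of Hadha and Hadhb overlap and share a GC box, and Acsl1 and Bdh1 each have windows at separate starts. The GC box GGGCGG was in 14 of these 27 windows against 32.7% of all 32851 windows, and CCAAT was in 12 against 33.8%. AGGTCA was in 5 of 27, those of Acadm, Acadvl, Acsm1, Cpt1a and Echs1, against 14.0% of all. TATAAA was in none of the 27 against 12.4% of all. The paired forms AGGTCANAGGTCA (DR1, read by PPARA with RXR) and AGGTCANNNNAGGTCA (DR4, read by thyroid hormone receptors) were in none of the 27 and in 0.0335% and 0.0152% of all windows. The paired forms contain the half-site. Letters that match are not a binding site, and distant elements lie outside these windows.

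Set against control, the NASH library addressed how the pathway differed between livers on the western diet with fructose and on chow. The differences were small, and 20 of 29 members lay above control, a share close to the 68.5% of all genes that did. Bdh1, which interconverts acetoacetate and 3-hydroxybutyrate, was the single member called higher (1 of 29, or 3.45%, against 10.3% of all genes), and none was called lower (against 2.53%). The median log2 ratio was 0.15 for the members and 0.12 for all genes. After TMM (trimmed mean) scaling the members' median was -0.06, equal to that of all genes. No member was then called higher (against 6.81% of all genes) and 1 was called lower (against 4.55%). Cpt2, Acadl, Hadha, Hadhb, Echs1, Etfa, Etfdh and Slc16a1 changed sign under at least 1 alternative, so no direction is given for them. At a lower threshold of 0.32 on the log2 scale, 7 members were higher against 24.7% of all genes (24.1% of the members), and Acadsb was the 1 lower against 6.52%. No member passed 2-fold in either direction, against 3.24% of all genes higher and 0.752% lower.

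The members furthest above control in NASH came from several steps, in the order Bdh1, Acad10, Hadh, Slc16a6, Acsm3, Acat1 and Cpt1a by fold. Bdh1 stood at 68.6 FPKM in control, 108 in NASH and 73.8 with TH treatment, 1.57-fold higher in NASH (1.53 to 1.61), and its log2 ratio fell short of the threshold under TMM scaling, under scaling by the median of gene ratios and with gene length centred. Acat1, the mitochondrial thiolase that joins 2 acetyl-CoA units, stood at 103, 135 and 76.5 FPKM, 1.31-fold higher in NASH (1.29 to 1.34). Hadh, the 3-hydroxyacyl-CoA dehydrogenase of medium and short chains, stood at 86.5, 120.1 and 76.0 FPKM, 1.39-fold higher (1.36 to 1.42). All 3 genes were highest in NASH. On the lower side Acadsb, a dehydrogenase of short branched chains from isoleucine, stood at 46.2, 34.9 and 24.9 FPKM, 1.32-fold lower in NASH (1.28 to 1.37). Its fragments may include some of Fgfr2, which covers all 35611 bases of Acadsb on the opposite strand with 23.3% to 32.1% as many fragments, since the strand mode of the counting is not given.

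Beside these small differences, genes of whole cell classes differed more between the 2 libraries. The 9 hepatocyte markers found, led by Alb at 32685 FPKM in control and 20265 in NASH, had a median log2 ratio of -0.53, with 4 called lower. The 9 macrophage markers had 8 called higher and summed to 411 against 127 FPKM, and the 10 stellate cell and fibroblast markers had 8 called higher and summed to 167 against 79.0 FPKM. Of all genes 10.3% were called higher and 2.53% lower. In bulk liver, fewer cells of a type and less RNA per cell cannot be told apart. The part of cell makeup in the members' values was not tested.

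Set against NASH, the TH-treated library addressed how the pathway differed in mice that received thyroid hormone after 16 weeks of the diet. Here the members spread in both directions and more of them were lower. Of 29 members, 6 were called lower (20.7%, against 9.02% of all genes): Acsm5, Acad10, Acsm3, Acadm, Acat1 and Hadh. A further 2 were called higher (6.9%, against 8.42% of all genes): Slc16a6 and Etfb. The median log2 ratio was -0.22 for the members and -0.04 for all genes. Among the 2985 genes that reached 20 FPKM, a level most members share, the median was 0.07 and 11.7% were called lower and 14.8% higher. The 6 lower calls held under every scaling tried. Scaling to equal FPKM sums made them 7 (against 12.0% of all genes). At 0.32 on the log2 scale, 12 members were lower (41.4%, against 22% of all genes) and 4 higher (13.8%, against 18.8%). At 2-fold, Acsm5 and Acad10 were lower (against 2.75% of all genes) and 0 were higher (against 2.7%). Cpt1a, Acad11, Acaa2 and Decr1 changed sign under at least 1 alternative. Between the same libraries 5 of 10 stellate cell and fibroblast markers and 3 of 4 cholangiocyte markers tested were lower, with medians of -0.51 and -0.67 and none higher. Of 9 macrophage markers 3 were higher and 1 lower, their sum being 598 against 411 FPKM, and of 9 hepatocyte markers 2 were higher and 2 lower (median 0.25). Their part in the members' values was not tested.

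**Figure D2:**
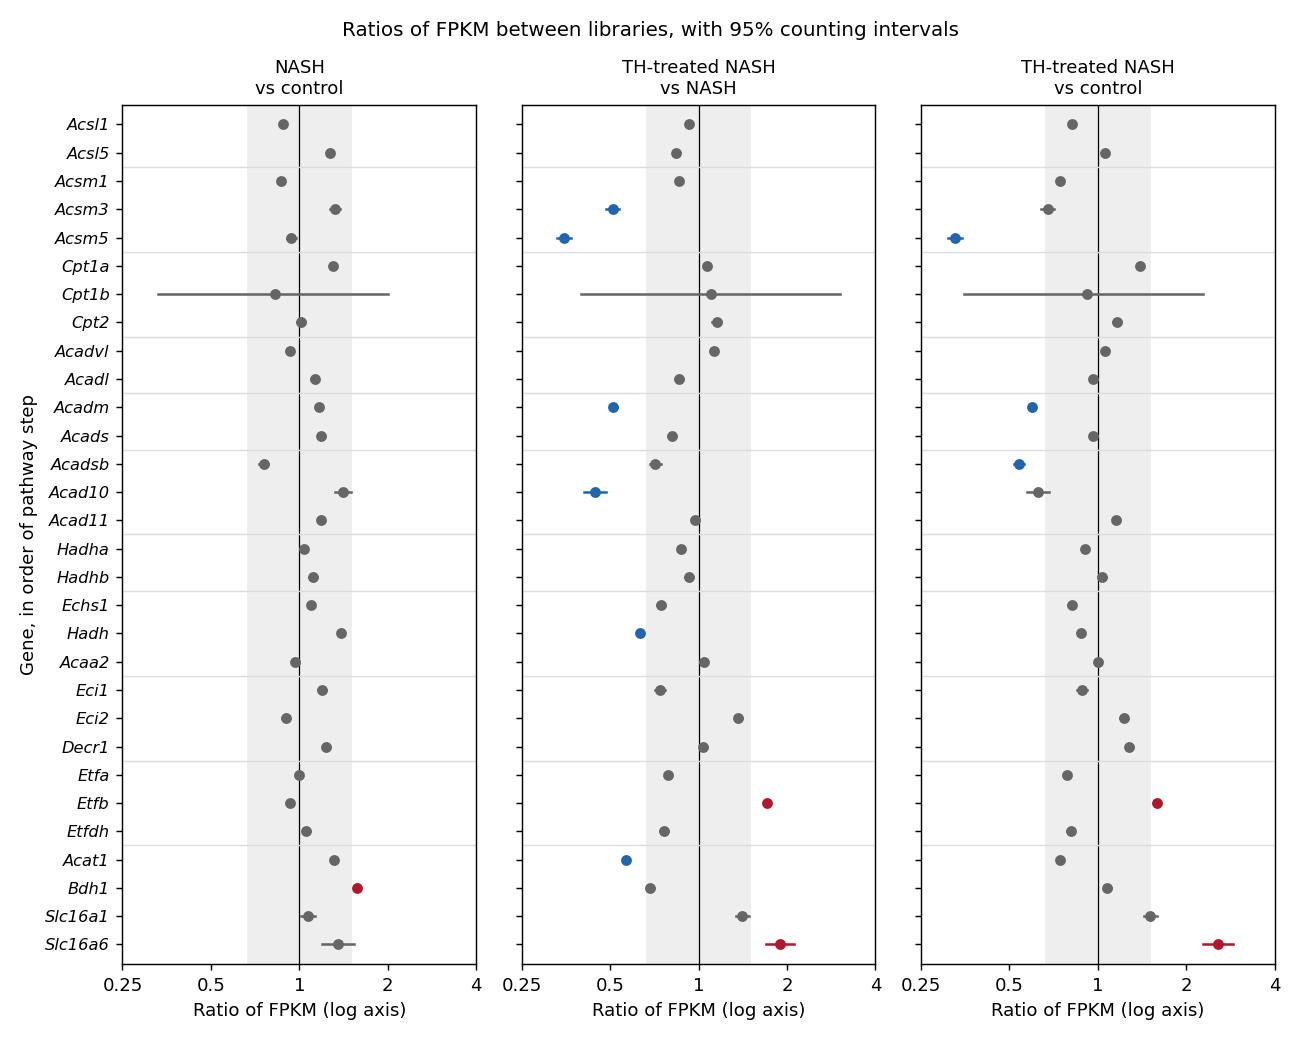
Ratio of FPKM (log axis) for each member in the 3 comparisons, with 95% counting intervals as horizontal lines; the grey band spans 1.5-fold in either direction, and red and blue mark members called higher or lower. In TH-treated NASH vs NASH, Acsm5 lies furthest to the left at 2.87-fold lower and Slc16a6 furthest to the right at 1.89-fold higher.

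**Figure D3:**
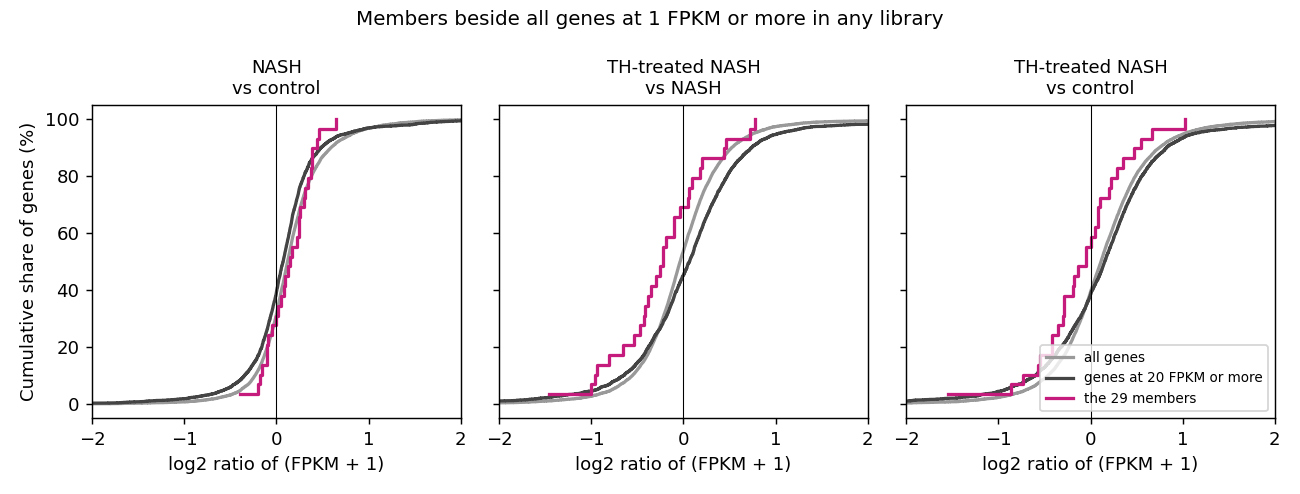
Cumulative share (%) of genes by log2 ratio of (FPKM + 1) in each comparison, for all 11835 genes, for those that reached 20 FPKM and for the 29 members tested. The members' curve follows all genes in NASH vs control and lies to their left through most of its range in both comparisons of TH-treated NASH, with medians of -0.22 and -0.05.

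Of the genes for entry of long chains, none of the 4 tested was called in any comparison. Acsl1, the main long-chain acyl-CoA synthetase of liver, stood at 170.1 FPKM in control, 149.9 in NASH and 139 with TH treatment, 1.08-fold lower with thyroid hormone (1.06 to 1.09). Acsl5, its relative, stood at 106, 134 and 112 FPKM. Cpt1a, the liver carnitine palmitoyltransferase whose inhibition by malonyl-CoA sets the pace of the pathway, stood at 100.1, 130.5 and 139.5 FPKM, and its ratio of TH-treated NASH to NASH was 1.07 (1.05 to 1.09). Cpt1a was thus lowest in control. Against control it was 1.30-fold higher in NASH (1.28 to 1.33) and 1.39-fold higher in TH-treated NASH (1.37 to 1.42). Its log2 ratio of TH-treated NASH to NASH ran from -0.01 to 0.19 over the alternatives. Cpt2, which returns the acyl group to CoA in the matrix, stood at 64.2, 65.0 and 74.8 FPKM, 1.15-fold higher with thyroid hormone (1.11 to 1.19). Cpt1b, the muscle form, rested on 14, 10 and 9 fragments, no more than 0.0886 FPKM. It lies wholly within Chkb, a gene at 13.3 to 18.2 FPKM on the same strand, and of 10 muscle markers the highest, Mylpf, reached 1.17 FPKM, with Ckm, Myh4 and Myh6 at 0 in all 3 libraries.

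Of the 3 medium-chain synthetases among the members, Acsm5 and Acsm3 were called lower with thyroid hormone and Acsm1 was not. Acsm5 stood at 46.0 FPKM in control, 43.1 in NASH and 15.0 with TH treatment, 2.87-fold lower than in NASH (2.72 to 3.03). Acsm3 stood at 27.4, 36.3 and 18.5 FPKM, 1.96-fold lower (1.87 to 2.06), and Acsm1 at 173, 150.5 and 129 FPKM, 1.17-fold lower (1.14 to 1.20). These enzymes activate medium-chain and aromatic acids inside the mitochondrion without carnitine. Their genes are neighbours: the 5 Acsm genes in the table lie within 261 kb of chromosome 7, from 119526304 (Acsm5) to 119787513 (Acsm3). Of the other Acsm genes there, Acsm2 stood at 0.165, 0.120 and 0.746 FPKM, 6.20-fold higher with thyroid hormone (4.34 to 9.08) on 37 and 187 fragments and below the filter in every library, and Acsm4 had no fragment. Acsm3 overlaps Eri2 on the opposite strand, which had 7.01% to 19.9% as many fragments. How reads shared by related Acsm genes were counted is not given.

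Of the 4 acyl-CoA dehydrogenases of straight chains, the medium-chain enzyme lay furthest from its NASH level and was the one called. Acadvl, the very-long-chain enzyme of the inner membrane, stood at 216 FPKM in control, 201 in NASH and 228 with TH treatment, 1.13-fold higher with thyroid hormone (1.11 to 1.15). Acadl, the long-chain enzyme, stood at 108, 121.5 and 104 FPKM, 1.17-fold lower (1.13 to 1.20). Acadm, the medium-chain enzyme (ENSMUSG00000062908, chromosome 3 from 153922357 to 153944632), stood at 164, 191 and 97.7 FPKM, 1.95-fold lower (1.90 to 2.01). Acads, the short-chain enzyme, stood at 99.8, 118.5 and 96.3 FPKM, 1.23-fold lower (1.19 to 1.27). Acadm was the one of these 4 called lower than control, at 1.67-fold in TH-treated NASH (1.63 to 1.72). Within a library, where no scaling enters, Acadvl exceeded Acadm 1.32-fold in control (1.29 to 1.34), 1.05-fold in NASH (1.03 to 1.07) and 2.33-fold with TH treatment (2.27 to 2.39). The ratio of Acadm to Acads was 1.64 in control (1.60 to 1.68), 1.61 in NASH (1.57 to 1.65) and 1.01 with TH treatment (0.983 to 1.05), an interval that includes equal levels.

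Of the remaining dehydrogenases, Acad10 was called lower than NASH. Acad10, an enzyme of the family whose substrates are less well known, stood at 6.53, 9.19 and 4.09 FPKM, 2.25-fold lower with thyroid hormone (2.07 to 2.45). Acadsb was 1.4-fold lower than in NASH (1.34 to 1.47) and 1.86-fold lower than in control (1.78 to 1.94), the lowest of the 3 libraries. Acad11 stood at 90.4, 107 and 104 FPKM, 1.03-fold lower (1.01 to 1.05).

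In the matrix steps after the first dehydrogenation, the long-chain complex lay near its NASH level, and of the medium- and short-chain enzymes Hadh and Echs1 lay below it and Acaa2 did not. The trifunctional protein, which carries out the later steps on long chains, is built from Hadha and Hadhb. Hadha stood at 83.7, 86.9 and 75.9 FPKM and Hadhb at 39.9, 44.5 and 41.2 FPKM, and the furthest difference was that of Hadha with thyroid hormone, 1.14-fold lower (1.12 to 1.17). The 2 genes point away from each other on chromosome 5 with 85 bases between them in the table, and 272 bases lie between their RefSeq starts. The ratio of Hadha to Hadhb was 2.10 in control (2.04 to 2.15), 1.95 in NASH (1.90 to 2.0) and 1.84 with TH treatment (1.79 to 1.90). For medium and short chains, Hadh was 1.58-fold lower with thyroid hormone (1.54 to 1.62), and Echs1, the enoyl-CoA hydratase, stood at 59.6, 65.4 and 48.7 FPKM, 1.34-fold lower (1.31 to 1.38). Acaa2 stood at 612, 591 and 615 FPKM, 1.04-fold higher with thyroid hormone (1.03 to 1.06).

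Of the 3 auxiliary enzymes, which reshape the double bonds of unsaturated chains, none was called in any comparison. Below the threshold, Eci2 and Eci1 lay on opposite sides of their NASH levels in TH-treated NASH. Eci2, an enoyl-CoA isomerase found in mitochondria and peroxisomes, stood at 142.5, 128 and 174.5 FPKM, 1.36-fold higher with thyroid hormone (1.33 to 1.4). Eci1, the mitochondrial isomerase, stood at 120.5, 144 and 106 FPKM, 1.35-fold lower (1.30 to 1.4). The ratio of Eci2 to Eci1 was 1.18 in control (1.15 to 1.22), 0.889 in NASH (0.863 to 0.917) and 1.64 with TH treatment (1.58 to 1.70). Decr1, the dienoyl-CoA reductase, stood at 66.3, 82.0 and 84.9 FPKM, 1.28-fold higher than in control in TH-treated NASH (1.246 to 1.32).

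The subunits of the electron transfer flavoprotein parted from each other. Etfb, the beta subunit (ENSMUSG00000004610, chromosome 7 from 43444108 to 43457800), stood at 361, 336 and 575 FPKM, 1.71-fold higher with thyroid hormone (1.67 to 1.75). Etfa, the alpha subunit, stood at 247, 246 and 193.5 FPKM, 1.27-fold lower (1.24 to 1.31). Etfdh, which passes the electrons on to ubiquinone, stood at 56.0, 59.2 and 45.2 FPKM, 1.31-fold lower (1.27 to 1.35). The ratio of Etfb to Etfa was 1.46 in control (1.43 to 1.49), 1.37 in NASH (1.33 to 1.4) and 2.97 with TH treatment (2.90 to 3.05). Etfb is the shortest member at 868 bases, and short genes as a class stood higher in this library. The median log2 ratio of the 1184 genes in the shortest of 10 length classes was 0.21 and that of the longest -0.12, and after centring by gene length Etfb had a log2 ratio of 0.57, under the threshold. The part of length in its value was not tested.

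**Figure D4:**
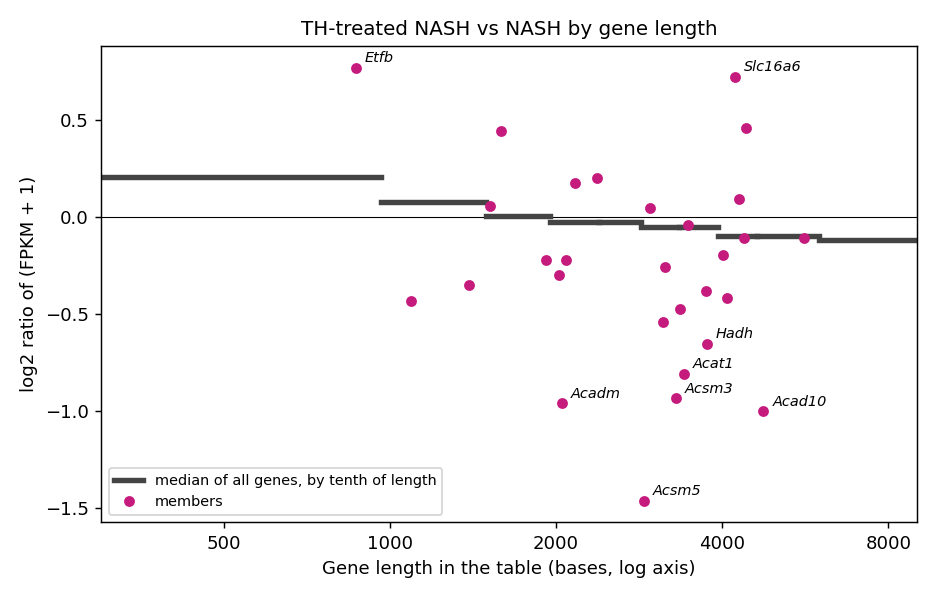
log2 ratio of (FPKM + 1) in TH-treated NASH vs NASH against gene length (bases, log axis) for the 29 members tested, with the median of all genes in each of 10 length classes as horizontal lines. The medians fall from 0.21 for the shortest genes to -0.12 for the longest, while Acsm5, Acad10, Acadm and Acsm3 lie at or below -0.93.

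**Figure D5:**
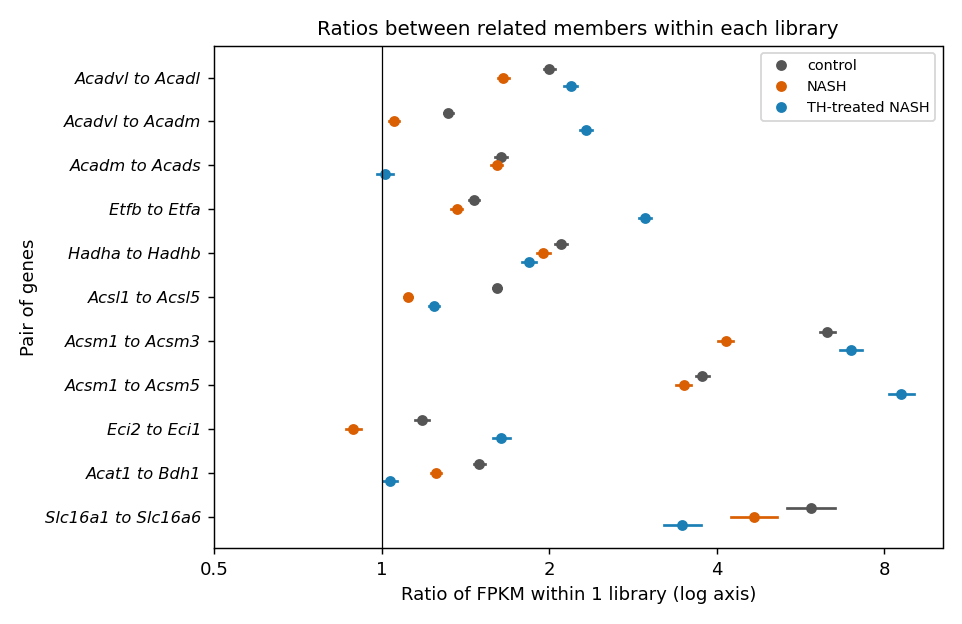
Ratio of FPKM between 2 related members within 1 library (log axis), with 95% counting intervals, for 11 pairs in the 3 libraries. For Acadvl to Acadm and Etfb to Etfa the TH-treated NASH point lies to the right of both others, at 2.33 and 2.97.

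Of the ketone body enzymes, Acat1 was called lower with thyroid hormone and Bdh1 was not. Acat1 (ENSMUSG00000032047, chromosome 9 from 53580522 to 53610382) was 1.76-fold lower than in NASH (1.72 to 1.8), and at 76.5 FPKM it lay 1.34-fold below control (1.31 to 1.38). Bdh1 (ENSMUSG00000046598, chromosome 16 from 31422280 to 31458901) was 1.46-fold lower than in NASH (1.42 to 1.5), just inside the threshold, and its ratio to control changed sign between alternatives, with a log2 ratio from -0.08 to 0.14. The ratio of Acat1 to Bdh1 was 1.5 in control (1.46 to 1.53), 1.251 in NASH (1.23 to 1.28) and 1.04 with TH treatment (1.01 to 1.07). Acat1 also acts in isoleucine breakdown, as Acadsb does. Both were lowest in TH-treated NASH, as were members of other steps such as Acsl1, Hadha and Etfa. In NASH against control the pair lay on opposite sides, Acat1 1.31-fold higher and Acadsb 1.32-fold lower.

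Of the carriers of the monocarboxylate family, Slc16a6 was called higher with thyroid hormone and Slc16a1 was not. Slc16a6, a carrier shown in zebrafish to release ketone bodies from liver (ENSMUSG00000041920, chromosome 11 from 109450855 to 109473598), stood at 1.99, 2.70 and 5.12 FPKM, 1.89-fold higher than in NASH (1.70 to 2.11) and 2.57-fold higher than in control (2.29 to 2.88). Slc16a1, the broadly expressed carrier of lactate and ketone bodies, stood at 11.8, 12.6 and 17.7 FPKM, 1.41-fold higher than in NASH (1.34 to 1.48). Both were highest in TH-treated NASH, and Slc16a1 exceeded Slc16a6 5.91-fold in control, 4.66-fold in NASH and 3.47-fold with TH treatment. Slc16a6 rested on 459, 536 and 827 fragments. It overlaps Arsg by 225 bases and Amz2 by 1959 bases on the opposite strand, and each of these had at least as many fragments, from 102% to 390.5% of those of Slc16a6, and their share in its count was not tested.

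TH-treated NASH was also compared with control, which shares libraries with both comparisons above. Here 2 members were called higher (6.9%, against 15.5% of all genes), Slc16a6 and Etfb, and 3 lower (10.3%, against 6.86%), Acsm5 at 3.06-fold (2.90 to 3.23), Acadsb and Acadm. The median was -0.05 for the members and 0.11 for all genes. Acsl5, Acadvl, Hadhb, Acaa2 and Bdh1 changed sign under at least 1 alternative. TMM scaling moved the medians to -0.24 and -0.04 and gave 1 higher (against 10.6% of all genes) and 7 lower (against 11.1%). Slc16a1, 1.51-fold higher (1.43 to 1.59), and Acad10, 1.60-fold lower (1.46 to 1.74), passed 1.5-fold as FPKM ratios but not on the log2(FPKM + 1) scale. At 0.32 on the log2 scale the counts were 5 higher (17.2%, against 31.4%) and 8 lower (27.6%, against 15.4%), and at 2-fold Slc16a6 was higher (against 5.4%) and Acsm5 lower (against 2.35%).

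Other genes of the pathway, from lists drawn up with earlier results of these data known, bordered on the members without moving as one. Of 23 further genes of mitochondrial acyl-CoA and carnitine handling that were tested, 5 were higher and 4 lower in TH-treated NASH than in NASH, with a median of -0.01. The shares of all genes were 8.42% higher and 9.02% lower. The carnitine carrier of the plasma membrane, Slc22a5, stood at 14.2, 13.3 and 25.5 FPKM, 1.92-fold higher (1.82 to 2.04). Acacb, whose malonyl-CoA restrains Cpt1a, stood at 14.6, 16.5 and 29.1 FPKM, 1.77-fold higher (1.71 to 1.82). Hsd17b10, a mitochondrial dehydrogenase of isoleucine breakdown and short chains, stood at 131, 166 and 93.1 FPKM, 1.78-fold lower (1.71 to 1.85), and Acad12, a relative of Acad10, at 2.33, 6.51 and 3.09 FPKM, 2.11-fold lower (1.83 to 2.42). In NASH against control 2 of the 23 were higher (against 10.3% of all genes) and 1 lower (against 2.53%). Acot2, a mitochondrial thioesterase, was 2.85-fold higher (2.49 to 3.27).

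Of 4 further ketone-related genes, 3 were lower in TH-treated NASH than in NASH (against 9.02% of all genes). Slc16a7, another monocarboxylate carrier, stood at 9.41, 19.6 and 3.88 FPKM, 5.06-fold lower (4.63 to 5.54). Bdh2, a cytosolic relative in name of Bdh1, stood at 13.9, 7.59 and 2.16 FPKM, 3.51-fold lower (2.81 to 4.43), and Aacs, which uses acetoacetate for lipid synthesis, stood at 18.6, 30.2 and 10.5 FPKM, 2.88-fold lower (2.70 to 3.06). Slc16a7 thus stood on the other side of NASH from its relatives Slc16a1 and Slc16a6. Oxct1, the enzyme that uses ketone bodies outside the liver, stood at 0.733, 2.42 and 2.01 FPKM.

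Of 19 genes of PPARA, its partners and its targets, 8 were higher and 2 lower in TH-treated NASH than in NASH, with a median of 0.37. Of all genes 8.42% were higher and 9.02% lower in this comparison. Ppara itself was one of the lower in its list, at 28.1, 28.9 and 11.6 FPKM. The fatty acid hydroxylase Cyp4a14 stood at 76.6, 36.7 and 159 FPKM, 4.33-fold higher (4.19 to 4.48), and Pdk4, the kinase that closes pyruvate dehydrogenase, at 1.23, 2.40 and 10.96 FPKM, 4.57-fold higher (4.08 to 5.12). Cyp4a31, of the same hydroxylase family, stood at 4.18, 1.89 and 34.1 FPKM, 18.02-fold higher (15.7 to 20.7). Cidec, a lipid droplet protein, was the other gene called lower, at 6.70, 77.5 and 7.74 FPKM, 10.01-fold lower (9.15 to 10.98). Acadm, Acsl1, Cpt1a and Cpt2 are textbook PPARA targets as well, and among them Acadm was called lower and the others were not called. They are examples and not a full list of the targets among the members, so no share is read from them. In peroxisomal oxidation 4 of 21 genes were higher and 8 lower (median -0.15), and among 18 enzymes of the citric acid cycle 2 were higher and 3 lower (median -0.02). Whether the members differ from these lists was not tested.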

How the data were processed

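Levels are FPKM as the authors deposited them, 1 column per library. The submitters' processing notes name HTSeq and TopHat2. For versions, genome build and strand mode the sources used here give nothing. The values gave whole fragments for 100% of entries within 0.01 fragment, and fragment totals were recovered from them. They supplied exact 95% counting intervals (Clopper-Pearson, conditional on the pair of counts), which cover counting error only. Log2 ratios used a pseudocount of 1 FPKM and genes at 1 FPKM or more in any library. With 1 library per group no test was run, and the call threshold was 1.5-fold. Members were matched by gene name, and all 30 were on the same chromosome in GENCODE M21, 18 with the same start and end. Every member is named, with up to 4 genes per comparison from each other list, taken from those with the largest absolute log2 ratio, and Dio1, Thrsp and Ppara as checks. Acsm2, Acsm4, genes that overlap members and single markers were named outside this rule, after their values were seen. The members and lists were chosen with earlier results of these data known. Promoter windows came from RefSeq (GRCm38.p6), and members without one are Acat1, Decr1, Cpt1b, Slc16a6 and Acaa2. Calculations were tested on simulated data and used Python 3.11.15, pandas 2.3.3, numpy 2.4.6, scipy 1.17.1 and matplotlib 3.10.9. In all, 15 alternatives were tried.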

Additional observations from a re-analysis of the deposited data

How the results depend on the processing

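No paired analysis was possible because each group has 1 library, and for the same reason no library could be left out. Of 15 alternatives, 2 (centring by gene length and a background of genes that reached 20 FPKM) were chosen after seeing the data. In NASH against control the members' median of 0.15 became -0.059 under median-of-ratios scaling and -0.060 under TMM scaling, with 0 higher and 1 lower in both. Of all genes 6.80% were higher and 4.53% lower under the first, and 6.81% and 4.55% under the second. After length centring the members' median was 0.016, with 0 higher (against 7.17%). In TH-treated NASH against NASH the median of -0.22 became -0.18 under median-of-ratios scaling, -0.33 with equal FPKM sums and -0.26 with totals without the 50 most abundant genes. The 2 higher members became 1 with a pseudocount of 5 FPKM (Slc16a6 lost, against 4.33% of all genes) and 1 after length centring (Etfb lost, against 7.88%). The 6 lower stayed past 1.5-fold under every alternative. In TH-treated NASH against control the median of -0.05 became -0.23 (median-of-ratios), -0.24 (TMM), -0.14 (equal sums), -0.12 (without the 50 genes) and -0.20 (length centring). The 2 higher became 1 under median-of-ratios, TMM, equal sums, length centring and the pseudocount of 5 (against 10.9%, 10.6%, 12.8%, 10.2% and 6.67% of all genes). The 3 lower became 7 under median-of-ratios and TMM (against 10.8% and 11.1%). They became 5 under equal sums, without the 50 genes and length centring (against 8.55%, 8.32% and 9.82%). At 0.32 on the log2 scale the counts higher and lower were 7 and 1, 4 and 12, and 5 and 8 in the 3 comparisons, and at 2-fold 0 and 0, 0 and 2, and 1 and 1. Sign was kept under every alternative by 21, 25 and 24 of the 29 members tested. Alternatives in the pseudocount, gene filter, call threshold or background could not turn a sign. All of these but the pseudocounts left each member's log2 ratio unchanged. Only scaling, thinning of fragments to equal depth and length centring could turn a sign. Without the length term the ratio of Etfb to Etfa was 0.912 in control and 0.851 in NASH, and that of Eci2 to Eci1 in NASH was 1.30. The causes were not tested. Cpt1b rested on 9 to 14 fragments, and the part of depth or of its overlap with Chkb in this low count was not tested.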

Other observations

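Among genes of thyroid hormone response, 5 of 13 were higher (against 8.42% of all genes) and 1 lower (against 9.02%) in TH-treated NASH than in NASH, with a median log2 ratio of 0.43. Among 10 genes of fatty acid synthesis, 4 were higher in NASH than in control (against 10.3% of all genes), and 3 were higher and 3 lower in TH-treated NASH than in NASH. The desaturase Scd1 stood at 1786 FPKM in control, 6747 in NASH and 2514 with TH treatment. The 6 male-biased liver genes summed to 8449 FPKM in control, 11150 in NASH and 1412 with TH treatment, with 4 called lower in the last than in NASH.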
